A study of Homo sapiens with 12 samples.

Results

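The genes described here are those through which a cell sends, receives and limits Wnt signals. They were taken by name from the table of 35337 genes: WNT ligands, FZD receptors, DKK and SFRP secreted inhibitors, and 16 further genes for co-receptors, ligand secretion, the destruction complex, transcription factors and feedback. The rule found 53 genes, of which 41 had reads in at least 1 library and 28 were high enough to be tested. It used no measured value, but it was chosen with earlier results of these data known.

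RNA was measured in EndoC-βH3 cells, a line of human beta-like cells derived from fetal pancreas, which carries floxed hTERT and SV40 large T antigen genes together with a tamoxifen-activated Cre recombinase. The 6 non-senescent samples were untreated controls, and the 6 senescent samples had received 4-hydroxytamoxifen for 3 weeks. The labels give its concentration as 1 mM and the methods as 1 μM. All samples share 1 line and are called WT in the labels. The treated cells differ from the controls in tamoxifen exposure, in the excision of both transgenes and in senescence, which cannot be told apart here. The samples came in 2 batches, taken here from the letter in the sample titles, with 2 per group in A and 4 per group in B. With 2 per group, the groups of a gene come apart easily in batch A. The share of all genes that did so in batch A alone is not given here. The sources name the batches as independent but do not say whether the samples within a batch came from separate cultures, so the p-values measure only the spread between these samples, which may be technical.

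Wnt ligands are secreted glycoproteins. In the canonical branch they bind a Frizzled receptor together with LRP5 or LRP6, which stops a destruction complex of APC, axin and kinases from marking β-catenin for degradation, and β-catenin then acts with TCF/LEF factors on target genes. Other ligands, WNT5A best known among them, act mostly through receptors such as ROR2 without β-catenin. The pathway limits itself, since several of its target genes (AXIN2, RNF43, ZNRF3, NKD1) encode inhibitors of it. In the pancreas Wnt signals are known for their part in organ growth and in the proliferation and maturation of beta cells.

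Sequencing was deeper in batch A (8873569 to 17106776 reads per library) than in batch B (4672924 to 7063264). Values are normalised read counts, that is, reads of a gene divided by 1 size factor per library. They count 3′ ends and are not adjusted for transcript length. Levels are compared between samples, also where genes are summed or given as shares, and not from gene to gene. The first principal component, with 57.6% of the variance, separated the batches, and the second, with 19.3%, separated the groups within both, so batch was a term of the model and values are given by batch. A gene was called when limma gave a Benjamini-Hochberg adjusted p under 0.1 over all 13847 genes tested and the fold change was over 1.5. A log2 fold change is senescent against non-senescent of the value plus 1, so that changes of low genes come out too small. Of the cell markers, all 14 beta-cell genes were tested, 5 were called higher (INS, IAPP, PDX1, MAFA and G6PC2) and 0 lower. All 6 proliferation markers were called lower, and their summed level went from 3625 to 3728 in non-senescent libraries to 377 to 679 in senescent libraries.

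The ligand genes changed in both directions. WNT3 was 4.28-fold lower in senescent cells, while WNT4 was 2.28-fold, WNT5A 1.89-fold and WNT5B 10.4-fold higher. Among the receptors FZD4 was higher and FZD6 lower, among the secreted inhibitors DKK3 was higher and SFRP1 lower, and among the feedback genes RNF43 was higher and NKD1 lower. Of the 28 tested genes, 6 were thus called higher and 4 lower, or 35.7%, where 23.4% of all tested genes were called (11.6% higher and 11.8% lower). A further 6 passed the adjusted p but not the fold change, so that 16 of 28 had an adjusted p under 0.1, against 45.5% of all genes. Among these 6 was LGR4, which had opposite signs in the batches. The median log2 fold change of the 28 was 0.24, and that of all tested genes 0.01. The sign was the same in both batches for 23 of 28 (82.1%), against 70.4% of all genes.

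**Figure D1:**
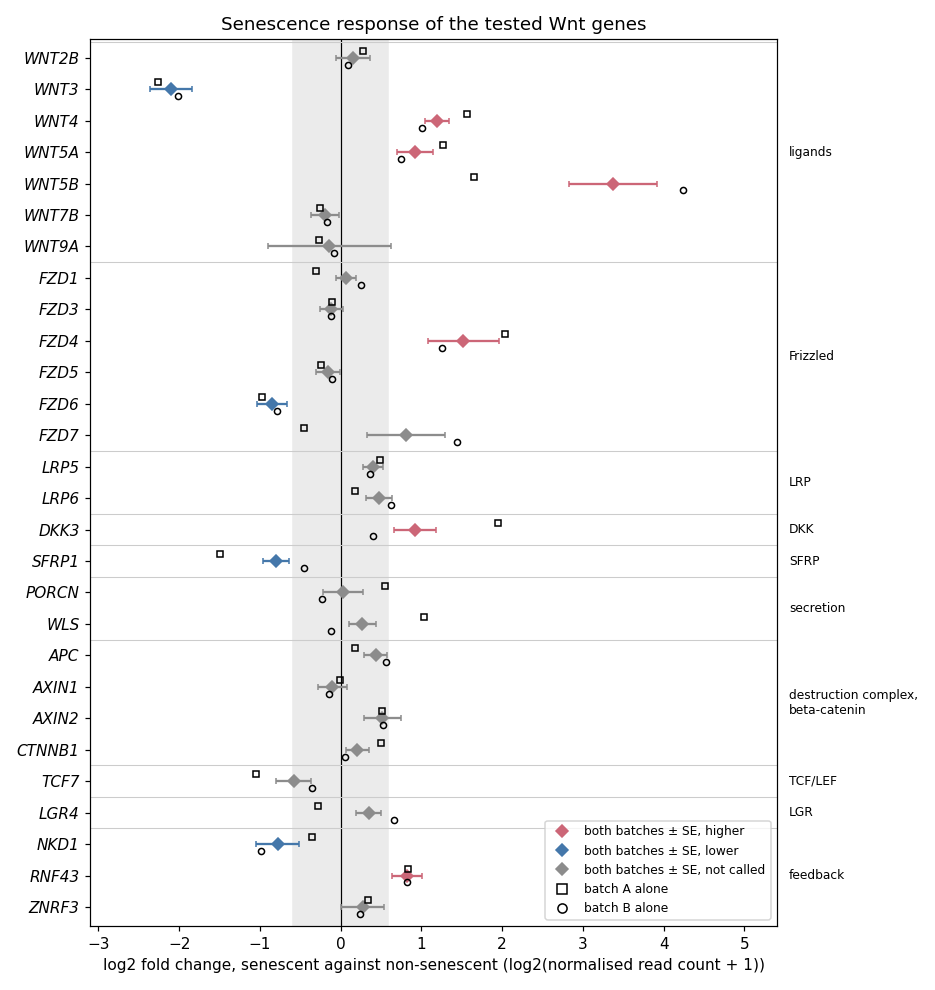
Log2 fold change (x axis, log2(normalised read count + 1), senescent against non-senescent) of the 28 tested Wnt genes, ordered by role. Diamonds with bars give the fit over both batches ± SE, squares batch A alone and circles batch B alone, and the grey band marks fold changes under 1.5. The called genes run from WNT3 at -2.10 to WNT5B at 3.38, and most other genes lie inside the band.

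The promoters of the ligand genes with the largest fall (WNT3) and the largest rises (WNT4 and WNT5B) are shown because their RNA moved in opposite directions in the same cells. Each line gives the 250 bases before a RefSeq transcription start (GRCh38.p14), read 5′ to 3′ on the strand of the gene. None of these bases lies in an exon of the GENCODE v44 annotation. Capitals mark the only match to the motifs searched, a TATAAA read on the opposite strand that begins 78 bases before the start of WNT5B.
WNT3 (chr17:46818693-46818942, minus strand): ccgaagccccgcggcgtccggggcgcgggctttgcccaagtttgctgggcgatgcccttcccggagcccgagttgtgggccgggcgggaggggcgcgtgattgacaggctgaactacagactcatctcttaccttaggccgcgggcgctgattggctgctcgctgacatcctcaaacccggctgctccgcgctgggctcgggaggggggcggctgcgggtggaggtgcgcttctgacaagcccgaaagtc
WNT4 (chr1:22143098-22143347, minus strand): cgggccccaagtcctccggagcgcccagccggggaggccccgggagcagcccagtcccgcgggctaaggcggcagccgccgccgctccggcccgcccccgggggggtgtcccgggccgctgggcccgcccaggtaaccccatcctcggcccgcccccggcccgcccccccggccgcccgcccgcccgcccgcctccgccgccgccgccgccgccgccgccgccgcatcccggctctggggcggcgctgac
WNT5B (chr12:1628981-1629230, plus strand): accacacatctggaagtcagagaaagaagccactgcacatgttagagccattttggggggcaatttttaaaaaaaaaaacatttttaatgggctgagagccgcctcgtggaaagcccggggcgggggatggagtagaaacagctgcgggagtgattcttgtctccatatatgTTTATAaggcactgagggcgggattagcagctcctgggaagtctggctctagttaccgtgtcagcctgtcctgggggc
The G and C content was 68.8% for WNT3, 86.8% for WNT4 and 50.8% for WNT5B. A second RefSeq start of WNT5B, upstream of this one, had 54.8% and no match. RefSeq promoters were at hand for 36 of the 53 genes, 44 promoters in all. Those of AXIN2, NKD1, ZNRF3, FZD6, DKK3 and SFRP1 were not among them, so the shares below leave these genes out. On either strand, the core TCF/LEF letters CTTTGA were in 2 of the 44 (DKK1 and PORCN), against 11.2% of 35093 promoters of the same length. The longer form CTTTGAT, every match of which is also a CTTTGA match, was in 0 of 44, against 2.26% of all. TTTNNCGC, with N as any base, is a looser pattern than the core of E2F sites. It was in 2 of 44 (WNT2 and WNT2B), against 5.92%. TATAAA was in 4 of 44 (DKK1, FZD8, TCF7 and WNT5B), against 10.7%. A match is a description of letters and not a binding site, and these windows reach only 250 bases.

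WNT3, a canonical ligand known for its role in gastrulation, fell. In batch A it was at 40.6 and 55.6 normalised read counts in the non-senescent samples and at 8.08 and 10.3 in the senescent samples. In batch B it was at 49.7, 38.5, 89.1 and 50.9 in non-senescent samples B1 to B4 and at 14.5, 15.7, 6.87 and 16.2 in senescent samples B1 to B4. The highest senescent value lay below the lowest non-senescent value, whichever batch it came from. The means were 54.1 ± 18.4 and 11.9 ± 4.07 (SD, n = 6), and the log2 fold change was -2.10 ± 0.26 (SE, limma adjusted p 5.71e-06). It was -2.26 for batch A alone and -2.01 for batch B alone. In bulk RNA, fewer cells that express a gene and less RNA per cell cannot be told apart. WNT3 lies on GRCh38 chromosome 17 (46762506 to 46833154, minus strand, protein-coding). Between the outermost GENCODE ends, 46 bases part it from WNT9B, which runs the other way. The RefSeq promoter windows lie further apart, at 46818693 to 46818942 for WNT3 and 46851333 to 46851582 for WNT9B. WNT9B, a ligand known from kidney development, had 9 reads in all non-senescent and 9 in all senescent libraries and was too low to test.

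WNT4, a ligand known from kidney and gonad development that also signals without β-catenin, rose. In batch A it was at 31.1 and 24.6 in the non-senescent samples and at 80.8 and 86.4 in the senescent samples. In batch B it was at 128, 99.1, 90.6 and 96.9 in non-senescent and at 225, 192, 254 and 168 in senescent samples. The groups did not overlap within either batch, but the senescent samples of batch A lay below every non-senescent sample of batch B. The log2 fold change was 1.19 ± 0.15 (SE, limma adjusted p 6.98e-06). It was 1.56 for batch A alone and 1.01 for batch B alone. WNT4 lies on chromosome 1 (22117313 to 22143969, minus strand, protein-coding).

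WNT5A and WNT5B, close relatives that act mainly without β-catenin, were both higher in senescent cells. WNT5A (chromosome 3, 55465715 to 55490539, minus strand) was at 35.6 and 41.3 in the non-senescent and at 98.8 and 89.4 in the senescent samples of batch A. In batch B it was at 19.6, 23.4, 17.5 and 34.8 in non-senescent and at 47.3, 51.4, 25.2 and 38.6 in senescent samples. The groups were apart in batch A, whereas the senescent sample B3 lay below the non-senescent sample B4. The log2 fold change of WNT5A was 0.92 ± 0.22 (SE, limma adjusted p 0.00314), with 1.27 in batch A, whereas the 0.74 of batch B alone missed the threshold (adjusted p 0.102).

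WNT5B (chromosome 12, 1529891 to 1647212, plus strand) was near its detection limit in non-senescent cells. It was at 0 and 2.38 in the non-senescent and at 5.39 and 4.23 in the senescent samples of batch A. In batch B it was at 0, 1.38, 0 and 1.24 in non-senescent and at 12.1, 34.6, 27.5 and 49.8 in senescent samples. Every senescent sample was above every non-senescent sample, and all senescent values of batch B were above those of batch A. In reads this was 5 in the 6 non-senescent libraries and 126 in the 6 senescent libraries, a ratio per sequenced read of 18.8 (95% interval 7.87 to 59.1 for counting error only). Within batches the ratio was 4.55 (1.34 to 24.0, from 3 and 19 reads) in A and 41.9 (11.3 to 350, from 2 and 107 reads) in B. The log2 fold change of WNT5B was 3.38 ± 0.55 (SE, limma adjusted p 0.000101), and it moved to 5.23 at a pseudocount of 0.1 and to 1.55 at a pseudocount of 8. The difference of 2.59 between its batch B and batch A log2 fold changes had an adjusted interaction p of 0.203.

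The other 3 tested ligands did not pass. WNT7B, a canonical ligand, ranged from 12.2 through a median of 79.6 to 99.4 in non-senescent and from 9.06 through 69.3 to 103 in senescent samples (log2 fold change -0.20, adjusted p 0.394). Its low values were those of batch A in both groups. WNT2B ranged from 15.9 through 20.6 to 27.3 and from 16.6 through 23.0 to 27.9 (log2 fold change 0.15, adjusted p 0.598), and its 3′ end overlaps the gene ST7L on the other strand. Its groups were apart in batch A, with the senescent samples higher, and overlapped in batch B. WNT9A ranged from 0 through 12.4 to 27.1 and from 0 through 11.2 to 21.0, a log2 fold change of -0.14 with a standard error of 0.76, and each group held 1 sample without reads.

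**Figure D2:**
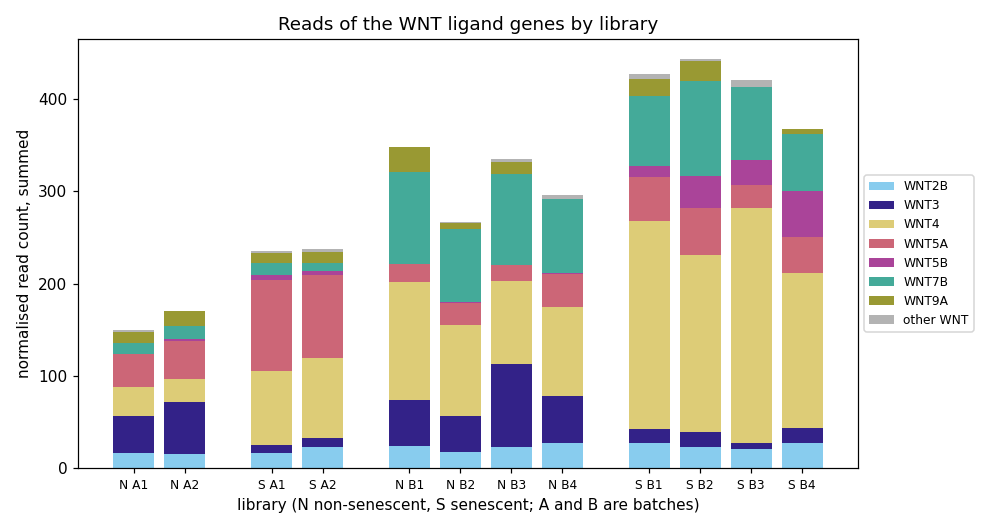
Normalised read counts of the WNT ligand genes, stacked by gene, in each of the 12 libraries (N non-senescent, S senescent; A and B are the batches). Summed values were higher in the senescent than in the non-senescent libraries of the same batch, and the WNT3 segment is smaller and the WNT4 segment larger in every senescent library than in the non-senescent libraries of its batch.

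Counted as shares of all WNT ligand reads of a library, the same shift appeared. The share of WNT3 was 27.0% and 32.6% in the non-senescent and 3.44% and 4.33% in the senescent libraries of batch A. In batch B it ranged from 14.3% to 26.6% and from 1.63% to 4.41%. The share of WNT4 went from 14.4% and 20.7% to 34.4% and 36.4% in batch A, and from a range of 27.1% to 37.1% to a range of 43.4% to 60.5% in batch B. The share of WNT5A was 23.7% and 24.2% against 37.7% and 42.1% in batch A, where the groups were apart, and 5.24% to 11.8% against 5.99% to 11.6% in batch B, where they overlapped. Summed over all WNT ligand genes, the normalised read count was 150 and 171 in the non-senescent and 235 and 237 in the senescent libraries of batch A, and 267 to 348 and 367 to 443 in batch B. A library held 194 to 523 WNT reads in all. These shares are closed, so a fall of WNT3 by itself raises the others.

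Of the remaining ligands, WNT7A, WNT8B, WNT9B, WNT10A, WNT10B and WNT16 had at most 6 reads in a library and were not tested, and WNT1, WNT2, WNT3A, WNT6, WNT8A and WNT11 had none. A count of 0 allows up to 3 reads in a library, or 0.175 to 0.642 ppm of its reads, for counting error only. WNT16, which is known from other senescent cells, had 0 reads in the untreated and 4 in the treated libraries (adjusted p 0.234 in limma without a filter). In the reference, WNT3A stands 59065 bases from WNT9A, WNT1 stands 6586 bases from WNT10B and WNT6 stands 6618 bases from WNT10A. In none of these pairs were both genes high enough to test.

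**Figure D3:**
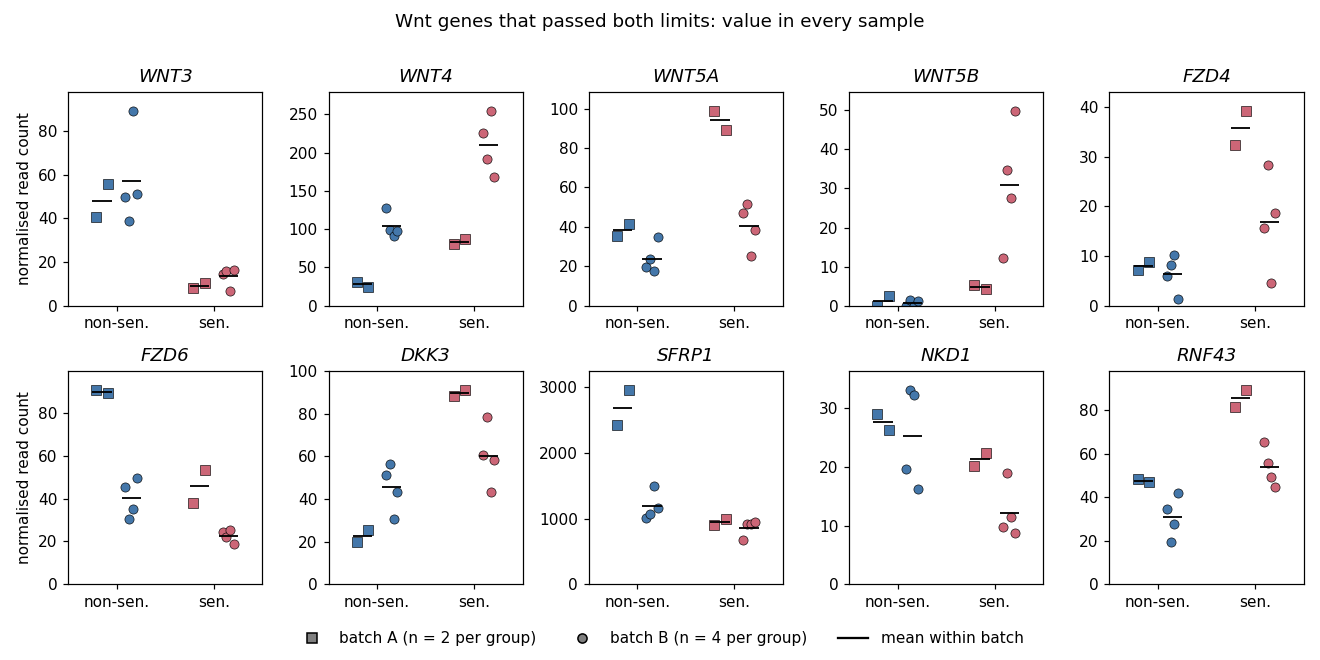
Normalised read counts (y axis, linear, from 0) of the 10 called Wnt genes in every sample, with squares for batch A (n = 2 per group), circles for batch B (n = 4 per group) and lines for the mean within a batch. The groups are apart in both batches for WNT3, WNT4, WNT5B, FZD6, SFRP1 and RNF43, and overlap in batch B for WNT5A, FZD4, DKK3 and NKD1.

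Of the Frizzled receptors, 6 of 10 were tested, and 1 was called higher and 1 lower. FZD4, a receptor that also serves the ligand norrin in vessel growth, was at 7.23 and 8.74 in the non-senescent and at 32.3 and 39.3 in the senescent samples of batch A. In batch B it was at 6.02, 8.26, 10.2 and 1.24 and at 15.8, 28.3, 4.58 and 18.7. The senescent sample B3 fell within the non-senescent range, and all other senescent samples were above it. The log2 fold change of FZD4 was 1.52 ± 0.44 (SE, limma adjusted p 0.0109), with 2.03 in batch A, and batch B alone did not pass (1.26, adjusted p 0.166). At a pseudocount of 8 it was 0.97. FZD4 lies on chromosome 11 (86945679 to 86955395), where its 3′ end overlaps PRSS23 on the other strand. The strand setting of the counting is not stated, so reads of such a pair cannot be told apart.

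FZD6, a receptor known from hair patterning and planar polarity, fell. It was at 90.6 and 89.0 in the non-senescent and at 38.2 and 53.1 in the senescent samples of batch A, and at 45.2, 30.3, 35.1 and 49.7 and at 24.2, 22.0, 25.2 and 18.7 in batch B. The groups were apart in each batch, while batch A was higher than batch B in both groups. The log2 fold change was -0.85 ± 0.18 (SE, limma adjusted p 0.00128), or -0.98 for batch A alone and -0.79 for batch B alone. Without a batch term its adjusted p was 0.116.

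FZD1, FZD3 and FZD5 did not pass, with log2 fold changes of 0.07, -0.12 and -0.16. FZD3 ranged from 128 through a median of 172 to 221 in non-senescent and from 121 through 150 to 216 in senescent samples. FZD5 ranged from 81.8 through 134 to 208 and from 84.0 through 125 to 155, and FZD1 from 87.7 through 97.5 to 220 and from 98.7 through 120 to 177. Over both batches the groups of all 3 genes overlapped. Within batch A the senescent samples of FZD1 and FZD5 lay below the non-senescent samples, and FZD1 had opposite signs in the batches (-0.31 in A and 0.26 in B). FZD7 had 26 reads in the untreated and 47 in the treated libraries and opposite signs in the batches (-0.46 in A and 1.45 in B). Its groups were apart in batch A, with the senescent samples lower, and overlapped in batch B. FZD9 had 1 read in each group, and FZD2, FZD8 and FZD10 had none.

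The co-receptors LRP5 and LRP6, which pass the canonical signal on with Frizzled, had adjusted p-values of 0.0170 and 0.0280 but fold changes under 1.5. LRP5 ranged from 81.1 through 110 to 149 in non-senescent and from 114 through 144 to 181 in senescent samples, a log2 fold change of 0.40 ± 0.12 (SE). LRP6 ranged from 37.3 through 55.8 to 183 and from 57.3 through 86.1 to 204 (0.48 ± 0.16), with its highest values in batch A of both groups. The groups of both genes were apart in batch A and overlapped in batch B. The 3′ end of LRP6 overlaps BCL2L14 on the other strand.

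Of the secreted inhibitors only 1 DKK gene and 1 SFRP gene were high enough to test. SFRP1, a decoy that binds Wnt ligands outside the cell, was at 2416 and 2953 in the non-senescent and at 909 and 990 in the senescent samples of batch A. In batch B it was at 1010, 1074, 1495 and 1159 in non-senescent and at 671, 913, 912 and 953 in senescent samples. Every senescent value was below every non-senescent value. The log2 fold change was -0.80 ± 0.16 (SE, limma adjusted p 0.000640). Batch A alone gave -1.49 and batch B alone -0.45, which had an adjusted p of 0.0439 and a fold change under 1.5. The difference between the batches, 1.04 ± 0.22 (SE) on the log2 scale, had an adjusted interaction p of 0.0220. The senescent levels of the batches lay close together and the non-senescent levels did not.

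DKK3, a divergent Dickkopf protein whose action on Wnt signals depends on the cell, rose. It was at 20 and 25.4 in the non-senescent and at 88.4 and 91.2 in the senescent samples of batch A, and at 51.2, 56.4, 30.7 and 43.5 and at 60.6, 78.7, 43.5 and 58.5 in batch B. The groups were far apart in batch A and overlapped in batch B. The log2 fold change over both batches was 0.92 ± 0.26 (SE, limma adjusted p 0.00889). Batch A alone gave 1.95 and batch B alone 0.41 (adjusted p 0.271), and the difference of -1.54 ± 0.40 between batches had an adjusted interaction p of 0.0588. DKK1, DKK2 and DKK4 had at most 3 reads in a library, SFRP4 had 6 reads in the untreated and 5 in the treated libraries, and SFRP2 and SFRP5 had none.

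The genes for ligand secretion were not called. WLS, the carrier that takes Wnt ligands to the cell surface, was at 230 and 265 in the non-senescent and at 513 and 502 in the senescent samples of batch A. In batch B it was at 435, 637, 564 and 442 and at 424, 540, 491 and 442. The groups were apart in batch A and overlapped in batch B, with log2 fold changes of 1.04 (limma adjusted p 0.000961) and -0.12 (adjusted p 0.554). The difference of -1.16 ± 0.22 (SE) between the batches had an adjusted interaction p of 0.00903, and over both batches the log2 fold change was 0.27 (adjusted p 0.225). The 3′ end of WLS overlaps GNG12-AS1 on the other strand. PORCN, the enzyme that attaches the fatty acid Wnt ligands need, ranged from 10.0 through 15.3 to 22.6 and from 14.5 through 15.0 to 18.0, with a log2 fold change of 0.03. It had opposite signs in the batches, 0.55 in A, where the groups were apart, and -0.23 in B.

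None of the 4 genes of the destruction complex and β-catenin was called. CTNNB1, which encodes β-catenin, ranged from 190 through 252 to 317 in non-senescent and from 172 through 289 to 457 in senescent samples (log2 fold change 0.21, adjusted p 0.253), and in batch A alone it had 0.51 (adjusted p 0.00637), a fold change under 1.5. APC, the scaffold of the complex, ranged from 107 through 130 to 186 and from 130 through 193 to 273 (0.43 ± 0.15, SE, adjusted p 0.0260), and its 3′ end overlaps a further annotated gene on the same strand, whose reads cannot be told apart from its own. AXIN1 ranged from 52.2 through 95.6 to 111 and from 57.2 through 83.9 to 111 (-0.10, adjusted p 0.687). Over both batches the ranges overlapped for each of the 3 genes, while in batch A the senescent samples of CTNNB1 and APC lay above the non-senescent samples. These are RNA levels, and β-catenin is regulated mainly as a protein.

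The feedback genes went in different directions. AXIN2, the gene most often read as a sign of canonical signalling, was at 33.3 and 31.8 in the non-senescent and at 47.6 and 45.9 in the senescent samples of batch A, and at 12, 17.9, 29.2 and 16.2 and at 25.4, 34.6, 18.3 and 28.6 in batch B. The groups were apart in batch A and overlapped in batch B. The log2 fold change of AXIN2 was 0.52 ± 0.23 (SE, limma adjusted p 0.0884), under the fold change of 1.5, and it was called when sample B3 of either group was left out (0.66 without the non-senescent and 0.62 without the senescent sample).

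RNF43, a ubiquitin ligase that removes Frizzled receptors from the surface, rose. It was at 48.4 and 46.9 in the non-senescent and at 81.7 and 89.4 in the senescent samples of batch A, and at 34.6, 19.3, 27.8 and 42.2 and at 65.4, 55.6, 49.2 and 44.8 in batch B. The groups were apart in each batch. The log2 fold change of RNF43 was 0.82 ± 0.19 (SE, limma adjusted p 0.00221), or 0.83 for batch A alone and 0.82 for batch B alone. Its 3′ end on chromosome 17 (58353676 to 58417595, minus strand) overlaps TSPOAP1-AS1 on the other strand and a further annotated gene on the same strand. ZNRF3, its relative with the same role, ranged from 21.5 through 33.3 to 45.2 and from 18.9 through 38.4 to 69.1 and did not pass (0.27, adjusted p 0.451). The difference between the responses of the 2 genes was not tested.

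NKD1, an inhibitor that binds Dishevelled, fell. It was at 28.9 and 26.2 in the non-senescent and at 20.2 and 22.3 in the senescent samples of batch A, and at 19.6, 33.0, 32.1 and 16.2 and at 9.69, 18.9, 11.4 and 8.72 in batch B. Of the senescent samples of batch B, only B2 lay within the non-senescent range of that batch. The log2 fold change was -0.78 ± 0.27 (SE, limma adjusted p 0.0281), or -0.36 for batch A alone and -0.99 for batch B alone. The call was lost without a batch term (adjusted p 0.107), in batch A alone (adjusted p 0.250), and at a pseudocount of 8, where the log2 fold change was -0.56.

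Of the TCF/LEF factors in the rule only TCF7 could be tested. TCF7, which encodes TCF1, ranged from 26.1 through 35.3 to 42.4 in non-senescent and from 11.7 through 25.0 to 42.4 in senescent samples, a log2 fold change of -0.58 ± 0.22 (SE, limma adjusted p 0.0453), just under the fold change of 1.5. The groups were apart in batch A (-1.04) and overlapped in batch B (-0.35). LEF1 had 1 read in each group, and TCF7L1, a repressor of the family, had 21 reads in the untreated and 18 in the treated libraries. TCF7L2, the factor of this family best known for its link to diabetes, is outside the rule. It had a log2 fold change of -0.54 (adjusted p 0.00310), under the fold change of 1.5.

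LGR4, a receptor for R-spondins, which strengthen Wnt signals by holding RNF43 and ZNRF3 back, behaved differently in the batches. It was at 136 and 166 in the non-senescent and at 120 and 127 in the senescent samples of batch A, and at 66.3, 59.2, 58.4 and 54.7 and at 95.7, 93.4, 87.0 and 102 in batch B. The groups did not overlap in either batch but lay in opposite orders. The log2 fold changes were -0.28 in A (limma adjusted p 0.167) and 0.66 in B (adjusted p 0.00712), and their difference of 0.94 ± 0.24 (SE) had an adjusted interaction p of 0.0569. Over both batches the log2 fold change was 0.35 (limma adjusted p 0.0958), which averages opposite signs. LGR5 had no reads.

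**Figure D4:**
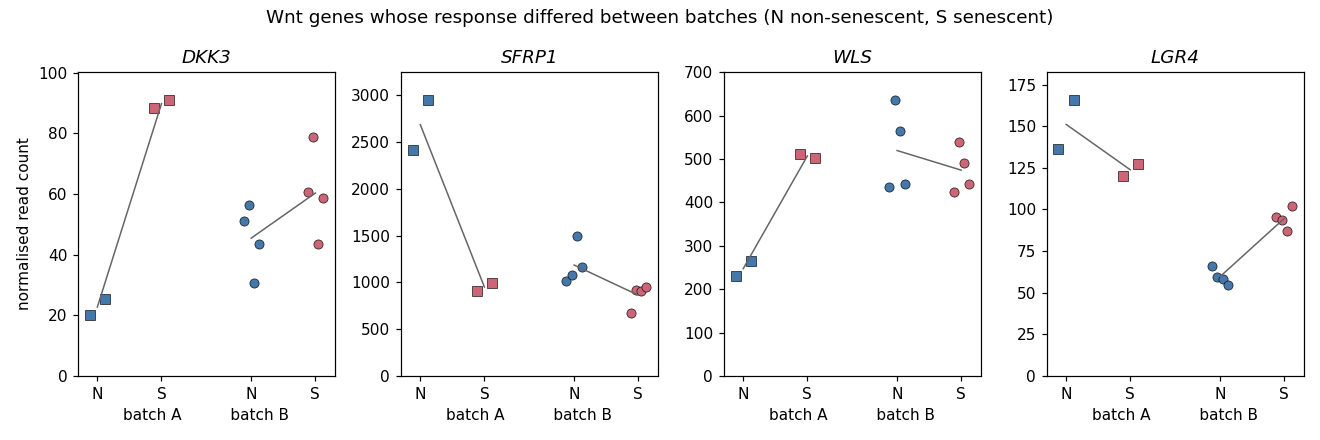
Normalised read counts (y axis, linear, from 0) of the 4 Wnt genes with an adjusted interaction p under 0.1, in non-senescent (N) and senescent (S) samples of each batch. Lines join the batch means. DKK3, SFRP1 and WLS differ more between groups in batch A, and LGR4 lies lower in the senescent samples of batch A and higher in those of batch B.

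DKK3, SFRP1, WLS and LGR4 were thus the 4 of 28 tested genes whose response differed between batches, where 4.21% of all tested genes did. For 6 of the 28 (WNT3, WNT4, WNT5B, FZD6, SFRP1 and RNF43) the groups were apart in batch A and, in the same order, in batch B, which held for 23.8% of all tested genes. All 10 called genes had the same sign in both batches, and the tested genes with opposite signs were FZD1, FZD7, PORCN, WLS and LGR4.

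Genes of the pathway outside the rule were taken from lists of receptors, secreted factors, signal transducers, nuclear partners, planar polarity genes and β-catenin targets. The table held 102 of them, of which 74 were tested, and 7 were called higher and 9 lower, or 21.6%, against 23.4% of all genes, and their median log2 fold change was 0.02. Of the 8 tested receptors 1 was called, ROR2, the receptor best known for WNT5A. ROR2 was at 88.9 and 91.4 in the non-senescent and at 263 and 282 in the senescent samples of batch A, and at 49.7, 61.9, 51.1 and 38.5 and at 202, 179, 174 and 135 in batch B. Every senescent sample was above every non-senescent sample, and the log2 fold change was 1.70 ± 0.14 (SE, limma adjusted p 3.05e-08).

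Among 25 tested transducers, BTRC (0.74) and TNKS (0.71), which act in the breakdown of β-catenin and of axin, were called higher, and DVL2 (-0.65), which relays the receptor signal, and DACT1 (-1.95), which binds Dishevelled, were called lower. Among 16 nuclear partners, BCL9L (0.69), a co-activator, and TLE4 (0.67), a co-repressor, were higher, and PYGO1 (-0.91), TLE2 (-0.83) and TLE3 (-2.57) were lower. TLE3, a co-repressor of TCF factors, was at 83.4 and 54.8 in the non-senescent and at 9.43 and 6.04 in the senescent samples of batch A, and at 30.1, 20.6, 21.9 and 14.9 and at 8.48, 1.05, 1.14 and 7.47 in batch B. Its groups were apart in each batch. Of 11 planar polarity genes, PRICKLE1 was higher (0.62) and PRICKLE2 lower (-0.93).

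Of 12 tested β-catenin targets, ASCL2 was called higher (1.22) and CD44 (-0.74), ID2 (-0.83) and BIRC5 (-1.66) lower. BIRC5, which encodes survivin, is also a gene of dividing cells. It was at 196 and 181 in the non-senescent and at 43.5 and 30.8 in the senescent samples of batch A, and at 279, 205, 222 and 179 and at 88.5, 87.1, 83.6 and 88.4 in batch B, so that the groups were apart. ASCL2, a stem cell factor of the intestine, was at 95 and 84.2 and at 273 and 281 in batch A, and at 346, 284, 269 and 322 and at 633, 595, 572 and 684 in batch B, again without overlap within a batch. MYC and CCND1, textbook targets, were below the filter with means of 1.51 and 0.046, and CCND2 had no reads. Of 3 tested secreted factors none was called, and KREMEN1, which binds DKK proteins and had the highest mean, had a log2 fold change of 0.02.

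Markers of other cells moved with the groups in part. Of the mesenchymal list, 3 of 9 were tested and 0 called, with summed levels of 37.4 to 171 in non-senescent and 29.6 to 91.6 in senescent libraries, and PDGFRB had no reads. The endothelial list had 1 of 6 tested and 0 called (6.11 to 24.8 and 3.74 to 14.5), and VWF and TEK had no reads. The immune list had 2 of 6 tested and 1 lower, PTPRC (22.3 to 58.4 and 16.2 to 46.2), and CD3E and HLA-DRA had no reads. The ductal list had 1 of 5 tested, KRT19, which was lower (246 to 379 and 80.4 to 162), and the acinar list had 1 of 8 tested, CPA1, which was higher (36.1 to 67.1 and 145 to 254). Of the other islet hormone cell list 3 of 5 were tested, and GCG and SST were lower. All samples share 1 line, so reads of these markers do not show that other cells were present. The part of what these markers reflect, and that of the fall in proliferation, in the Wnt differences was not tested.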

How the data were processed

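Poly(A) RNA of 12 EndoC-βH3 samples was measured by CEL-seq2, which counts 3′ ends. Reads were trimmed (Cutadapt), assigned to genes of GRCh38 (Salmon 0.13.1) and normalised (DESeq2) by the authors. The annotation, the strand setting and the use of molecular identifiers are not given in the sources used here. The deposited values are a signal, reads divided by 1 size factor per library. They were whole multiples of 1 read in 100% of 196021 values above 0 (tolerance 1e-06), so reads were recovered. Deposited columns of the authors' DESeq2 comparison (log2 fold changes, errors, a statistic and p-values) were not used.

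The labels gave each sample its group and replicate name, and the letter of that name was taken as the batch. The main test was limma 3.58.1 (R 4.3.3) with trend on log2(value + 1) for 13847 genes with a mean of at least 5, with batch and group as terms, and an interaction for the difference between batches. The limits and the batch term follow the study's methods. Alternatives were the pseudocount (0.1, 8), the filter (none, 20), TMM and same-total scaling, no batch term, a replicate block, no trend, each batch alone, each library left out, no fold change limit, and edgeR 4.0.16 and DESeq2 1.42.0 on recovered reads. On simulated data for this comparison (13847 genes, 200 changed), 82.4% of 2-fold and 97.8% of 4-fold changes were called, 94.2% of calls were changed genes, and 0 calls were made with no gene changed. Replicates of a group and batch differed beyond sampling noise (chi-square per degree of freedom 4.14 to 7.61). None was thus the same library sequenced again, but this does not show that they were separate cultures. Exact 95% Poisson intervals and floors cover counting error only.

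The members, lists and tests were chosen with earlier results of these data known. Values in every sample are given for called genes and for genes whose groups did not overlap in either batch, and the lowest, median and highest value per group for up to 3 other tested genes per role by highest mean. WLS had its values in every sample given after they were seen. AXIN2, ROR2, TLE3, BIRC5 and ASCL2 were given in full after their values were seen. Positions are from GENCODE v44, promoters from RefSeq.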

Additional observations from a re-analysis of the deposited data

Results flagged for a closer look

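The response of 4 genes differed between the batches by a test of the interaction of batch and group in limma. The log2 fold change in batch B minus that in batch A was -1.54 for DKK3, -1.16 for WLS, 1.04 for SFRP1 and 0.94 for LGR4. Batch A was also sequenced more deeply than batch B, and the part of depth in these differences was not tested.

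In 2 of 56 groups of 6 samples, 1 sample stood apart from the other 5 by Dixon's criterion on the log2(value + 1) scale, which chance meets in about 1 of 20 groups. The non-senescent sample B4 was low for FZD4, with a gap of 0.709 of the range of its group on that scale. Without it the log2 fold change of FZD4 was 1.23 and the call was kept. The senescent sample B1 was low for SFRP1, with a gap of 0.779 of the range on the same scale.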

How the results depend on the processing

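All 258 values recomputed for the 10 called Wnt genes kept their sign, and 250 kept their call. With another filter, no batch term, a replicate block, no trend or no fold change limit, the log2 fold change stays the same. Those signs could therefore not differ, and with no fold change limit a call could not be lost. The calls that were lost were those of WNT5A, FZD4, DKK3 and SFRP1 in batch B alone, of NKD1 in batch A alone, without a batch term and at a pseudocount of 8, and of FZD6 without a batch term. The cause of these losses was not tested. At the filter of 20, WNT5B and FZD4 (means of 11.6 and 15.1) were not tested, and these fits are not among the 258. The number of called Wnt genes was 8 to 11 under all alternatives but 1, and was 16 with no limit on the fold change. Over all genes it was 6301 with no limit on the fold change and 2143 with no batch term. Without 1 library at a time, 10 to 11 Wnt genes and 3142 to 3277 genes in all were called, and all 10 Wnt calls were kept. Scaling to the same total moved the median log2 fold change of all genes from 0.01 to -0.09 and the share of higher genes among all calls from 49.6% to 37.0%, with 6 Wnt genes higher and 5 lower. The genes gained under some alternative were TCF7 (at a pseudocount of 0.1, same total, edgeR and DESeq2, batch A alone, and without non-senescent B2 or B4 or senescent B1 or B2), AXIN2 (without either sample B3), FZD7, LRP6 and LGR4 (batch B alone) and WLS (batch A alone). Same-numbered samples did not deviate together from the means of their group and batch (correlations of -0.0508 to 0.0164). In batch A, with 2 samples per group, A1 and A2 share 1 value by construction. These correlations cannot show whether same-numbered samples had a common origin. With the replicate block 10 Wnt genes and 3211 genes in all were called, and the interaction was called for 3 Wnt genes instead of 4 (LGR4, adjusted p 0.124) and for 356 genes in all instead of 583. At a pseudocount of 8 it was called for 5 Wnt genes. Of the 53 genes, 25 had no reads or too few to test, and the part of depth in this was not tested.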
